A study of Mus musculus with 16 samples.

Results

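Wild-type tumours of ID8, a mouse ovarian surface epithelial cell line, were compared with wild-type tumours of KPC, a mouse pancreatic cancer model line. The comparison used 8 of the 16 samples, namely 3 ID8 tumours and 5 KPC tumours, chosen by the genotype label WT in both lines. The other 8 samples, 3 ID8 and 5 KPC tumours grown from Trp53bp1 knockout cells, were used only as a separate set of libraries in which the same line difference could be measured. The study asked how loss of 53BP1, the DNA repair protein encoded by Trp53bp1, affects the immune response. According to the labels, each cell line was placed in mice of its own strain and the tumour that grew was profiled by RNA-seq, although many host cell markers were at 0 in the ID8 libraries (given with the marker check). The labels call every sample a tumour and give no mouse strain, injection site, age, clone number or KPC alleles, and no drug treatment was given. Samples are labelled as biological replicates with no statement that each came from its own mouse, so p-values here measure only the spread between these samples, which may be technical. Each line is 1 genetic background, and no batch or date is labelled, so line, host strain and any batch cannot be told apart.

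The ovarian surface epithelium is a thin layer that is continuous with the mesothelium lining the peritoneal cavity. Like mesothelium it uses the transcription factor Wt1, and like the rest of the gonad it carries Nr5a1 and Gata4. The pancreatic duct is an endodermal epithelium whose identity rests on factors such as Pdx1 and Sox9. It is bound by E-cadherin junctions, and pancreatic tumours are known for gastric and intestinal mucin programmes and for dense collagen-rich stroma.

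Expression is given as CPM, a gene's count scaled to a common library total with TMM factors, so levels can be set between lines for 1 gene but not between genes. Log2 fold changes are ID8 minus KPC, with a positive value for a gene higher in ID8, and a gene is said to be higher where edgeR's quasi-likelihood test gave a Benjamini-Hochberg adjusted p of at most 0.05 and the fold was at least 2. Libraries held 19450799 to 19727536 counts in ID8 and 17902867 to 19302932 in KPC. Genes at 1 CPM or more numbered 11412 ± 7.55 (SD, n = 3) in ID8 and 13623 ± 123 (SD, n = 5) in KPC, a difference of -2210.6 (exact permutation test, two-sided, p = 0.0357, the smallest that 3 against 5 allows). The biological coefficient of variation was 5.43% among ID8 libraries and 25.1% among KPC libraries. Trp53bp1, which both wild-type lines should express, was measured at 46.5, 51.3 and 45.9 CPM in the ID8 libraries and 48.7, 48.7, 51.4, 46.2 and 53.3 CPM in the KPC libraries, and the lines overlapped (log2 fold change -0.05, SE 0.07, adjusted p = 0.505). In the libraries labelled knockout it was still at 18.9 ± 0.504 CPM in ID8 and 33.9 ± 3.85 CPM in KPC.

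The label of tumour tissue was checked against markers of host cells, and the lines parted sharply. Of 51 defining markers of immune, vascular, stromal, muscle, fat, blood, nerve and skin cells, 26 had 0 counts in all 3 ID8 libraries. Of the 51, 42 averaged under 1 CPM there. Of the same 51, 39 reached 1 CPM in all 5 KPC libraries. Ptprc, which encodes the pan-leukocyte antigen CD45, stood at 0 CPM in every ID8 library and 49.2, 54.8, 88.3, 139 and 48.7 CPM in the KPC libraries, at least 464-fold higher in KPC. Cdh5, the endothelial VE-cadherin gene, stood at 0 CPM in every ID8 library and 85.8, 86.3, 95.8, 121 and 75.6 CPM in the KPC libraries, at least 568-fold higher in KPC. Most leukocyte and endothelial markers, and the blood markers, were thus at or near 0 in ID8 libraries labelled as tumours. By contrast, 9 of the 51 markers averaged 1 CPM or more there, among them the stromal genes Col1a1, Col3a1 and Dcn. Also among the 9 were the macrophage marker Cd68 (11.1 to 12.7 CPM in ID8, 54.7 to 107 CPM in KPC), the endothelial marker Pecam1 (2.24 to 2.77 CPM in ID8) and the skin markers Krt10 and Lor. The extraction text of the labels speaks of RNA taken from cells, and whether the ID8 libraries hold whole tumour tissue cannot be settled from the sources used here. In bulk samples, fewer cells of a type and less RNA per cell cannot be told apart, and every KPC level given here is a sum over the KPC cells and the host cells in the tumour.

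Of 14507 genes tested in the wild-type libraries, 4263 (29.4%) were higher in KPC and 1843 (12.7%) were higher in ID8. Without the fold criterion 11474 genes (79.1%) passed the adjusted p, and 11646 had an unadjusted p under 0.05. For 11297 genes (77.9%) every library of one line lay above every library of the other. A gene with 0 counts throughout a line is given here as at least N-fold different, taken against a floor of 3 counts per library, because its fitted fold change depends on a prior count. Of the genes higher in KPC, 1227 had 0 counts in all 3 ID8 libraries, whereas 26 of those higher in ID8 had 0 counts in all 5 KPC libraries. Among the 10895 tested genes at 1 CPM or more in all 8 libraries, 1361 were higher in KPC and 1441 were higher in ID8. The median log2 fold change over all genes was -0.13, and it moved to -0.17 with median-of-ratios scaling, -0.28 with library totals and -0.28 with factors from shared genes outside the host lists.

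The knockout tumours, which share no library with the wild-type comparison, showed 4285 genes (29.8%) higher in KPC and 1784 (12.4%) higher in ID8. Of the 4263 genes higher in wild-type KPC, 3665 were also higher in knockout KPC, which is 86.0% of the wild-type list and 85.5% of the knockout list. Of the 1843 higher in wild-type ID8, 1346 were also higher in knockout ID8, or 73.0% and 75.4% of the respective lists. Calls in the opposite direction numbered 7 and 10. By list, the knockout libraries gave 15 mesothelial genes higher in ID8 and 4 higher in KPC, 3 and 19 foregut factors, 0 and 15 gastrointestinal genes, 14 and 11 Hox genes, 1 and 16 imprinted genes, and 4 and 21 epithelial junction genes, in that order.

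**Figure D1:**
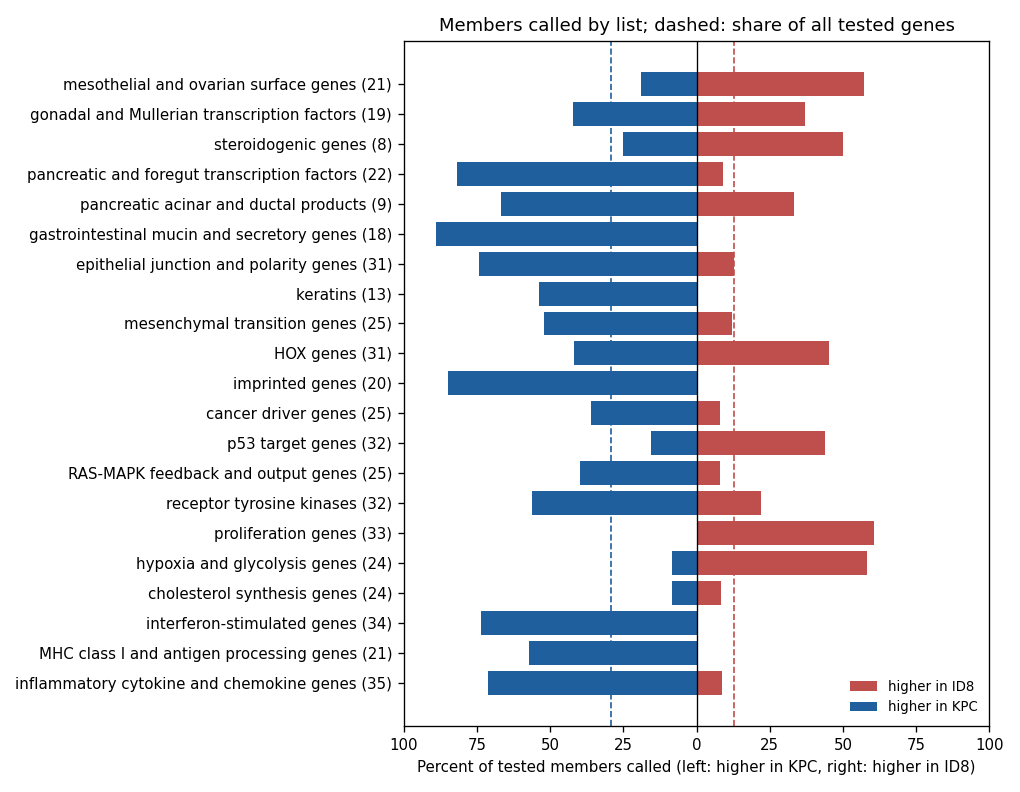
Percent of the tested members of each gene list that were higher in wild-type KPC (bars to the left) or higher in wild-type ID8 (bars to the right), with the number tested in parentheses and dashed lines at the share over all genes, 29.4% and 12.7%. Mesothelial, proliferation and hypoxia lists reach far to the right, and gastrointestinal, imprinted, foregut and interferon lists reach far to the left.

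Most mesothelial and ovarian surface genes were higher in ID8. Of the 22 such genes present, 21 were tested, of which 12 were higher in ID8 (against 12.7% of all genes), 4 were higher in KPC (against 29.4% of all genes) and 5 did not pass, with a median log2 fold change of 2.69 against -0.13 over all genes. Wt1, the zinc finger factor of mesothelium and gonad, was measured at 640.3, 615 and 630.5 CPM in the ID8 libraries and 0.249, 0.158, 0.295, 0.408 and 0.104 CPM in the KPC libraries (log2 fold change 11.29, SE 0.19, adjusted p = 2.18e-09). Upk3b, a uroplakin that marks mesothelium, was measured at 2307, 2168 and 2504 CPM in the ID8 libraries and 0.898, 1.95, 1.72, 0.459 and 3.75 CPM in the KPC libraries (log2 fold change 10.37, SE 0.54, adjusted p = 6.96e-07). Gpm6a, a membrane glycoprotein also found in mesothelium, was measured at 757, 754 and 767 CPM in the ID8 libraries and 0.399, 0.685, 0.393, 0.357 and 0.416 CPM in the KPC libraries (log2 fold change 10.70, SE 0.14, adjusted p = 7.63e-10). For these genes the lowest ID8 library was 615 CPM (Wt1) and the highest KPC library was 3.75 CPM (Upk3b).

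Other genes of the same surface layer were as one-sided. Upk1b, another uroplakin, ranged over 274 to 305 CPM in ID8 and 0 to 0.295 CPM in KPC. Lrrn4, a leucine-rich repeat membrane protein of mesothelium, ranged over 106 to 119.9 CPM in ID8 and 0 to 0.0982 CPM in KPC, a ratio of 5522-fold (95% counting interval 1528 to 45607). Bnc1, the zinc finger factor basonuclin, ranged over 121 to 132 CPM in ID8 and 0 to 1.13 CPM in KPC, with the KPC maximum in replicate 3. Muc16, which encodes the cell-surface mucin that carries the CA125 epitope, was at 18.99, 48.8 and 25.9 CPM in the ID8 libraries and 0 CPM in every KPC library, at least 204-fold higher in ID8. In the knockout libraries Muc16 stood at 106 ± 26.9 CPM in ID8 and 0 CPM in every KPC library. Msln, the mesothelin gene, went the other way at 396, 394 and 372 CPM in the ID8 libraries and 1221, 1337, 1204, 1056 and 1477 CPM in the KPC libraries (log2 fold change -1.70, SE 0.11, adjusted p = 9.96e-07). Mesothelin is a mesothelial antigen that pancreatic carcinomas are also known to express.

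Gonadal factors split between the lines. The list of 22 gonadal and Mullerian transcription factors had 19 tested members, with a median log2 fold change of -0.70. Of these, 7 were higher in ID8 (against 12.7% of all genes) and 8 were higher in KPC (against 29.4%). Lhx9, a gonadal factor, was higher in KPC, with 0.217 to 0.273 CPM in ID8 and 2.85 to 5.48 CPM in KPC (log2 fold change -4.22). Nr5a1, the steroidogenic factor of gonad and adrenal, was measured at 104, 97.9 and 94.2 CPM in the ID8 libraries and 0.150, 0, 0.0491, 0.0510 and 0 CPM in the KPC libraries (log2 fold change 10.75, SE 0.28, adjusted p = 9.98e-09). Gata4, a gonadal and endodermal zinc finger factor, was measured at 284, 279 and 277 CPM in the ID8 libraries and 38.6, 39.5, 48.5, 28.9 and 48.5 CPM in the KPC libraries (log2 fold change 2.78, SE 0.15, adjusted p = 4.53e-07). Gata6 followed it with 224 to 229.8 CPM in ID8 and 40.01 to 67.5 CPM in KPC (log2 fold change 2.13, SE 0.17, adjusted p = 4.49e-06). Nr5a1 thus divided the lines almost completely, whereas both lines held Gata4 and Gata6 at different levels. Pax8, a Mullerian and thyroid factor that marks oviduct-type epithelium, was low in both lines, with 0.922 to 1.64 CPM in ID8 and 0.0491 to 0.199 CPM in KPC (log2 fold change 3.73). Sox17, an endodermal and Mullerian factor that endothelium also uses, was 0 CPM in every ID8 library and 33.1, 42.3, 44.6, 38.8 and 48.9 CPM in the KPC libraries, at least 254-fold higher in KPC.

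Amhr2, the receptor for anti-Mullerian hormone, was measured at 369, 352 and 392 CPM in the ID8 libraries and 0.299, 0.895, 0.245, 0.204 and 0.260 CPM in the KPC libraries (log2 fold change 9.92, SE 0.27, adjusted p = 1.28e-08). Star, which moves cholesterol into mitochondria for steroid synthesis, was measured at 54.5 to 55.9 CPM in ID8 and 1.84 to 3.12 CPM in KPC (log2 fold change 4.61). Of 13 steroidogenic genes 8 were tested, of which 4 were higher in ID8 (against 12.7% of all genes) and 2 were higher in KPC (against 29.4%). Cyp11a1 was higher in KPC, with 0 to 0.164 CPM in ID8 and 0.598 to 1.53 CPM in KPC (log2 fold change -3.48, on 5 counts in ID8). In the knockout libraries 1 was higher in ID8 and 2 were higher in KPC.

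**Figure D2:**
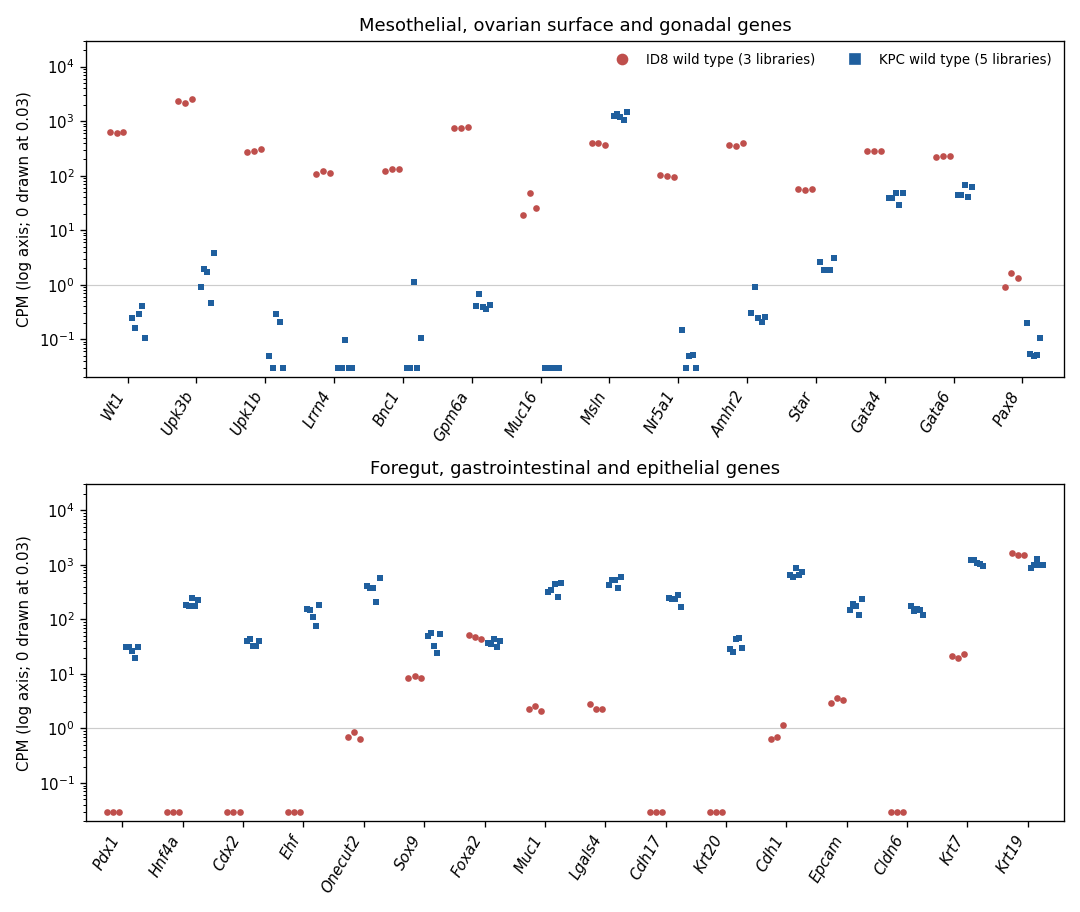
CPM of lineage genes in each of the 3 wild-type ID8 libraries (circles) and 5 wild-type KPC libraries (squares) on a log axis, with libraries at 0 drawn at 0.03. The mesothelial and gonadal genes drawn (upper panel) separate in favour of ID8 except Msln. The foregut and epithelial genes drawn (lower panel) separate in favour of KPC except Foxa2 and Krt19. Gonadal genes higher in KPC, such as Lhx9 and Sox17, are not drawn.

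Most foregut factors were higher in KPC. Of 28 pancreatic and foregut transcription factors 22 were tested. Among these, 18 were higher in KPC (against 29.4% of all genes), 2 were higher in ID8 (against 12.7%) and 2 did not pass. Of the listed factors 12 had 0 counts in all 3 ID8 libraries, and among genes listed in both tables, 11 were higher in KPC. Pdx1, the homeobox factor of pancreas and duodenum, was 0 CPM in every ID8 library and 31.7, 30.7, 25.9, 19.7 and 31.03 CPM in the KPC libraries, at least 169.9-fold higher in KPC. Hnf4a, a nuclear receptor of liver and gut epithelium, was 0 CPM in every ID8 library and 183, 179.8, 244, 174 and 225 CPM in the KPC libraries, at least 1229-fold higher. Both were undetected in the 3 ID8 libraries and present in all 5 KPC libraries.

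Cdx2, the intestinal homeobox factor, was likewise at 0 in ID8 and at 32.6 to 43.4 CPM in KPC, at least 232-fold higher. Ehf, an ETS factor of glandular epithelium, was at least 820-fold higher in KPC. Onecut2, a factor of liver and pancreas development, was measured at 0.705, 0.876 and 0.655 CPM in the ID8 libraries and 417, 384, 380.4, 212 and 576 CPM in the KPC libraries, with means 529-fold apart (log2 fold change -9.03, SE 0.45, adjusted p = 3.61e-07). Sox9, which marks duct progenitors, was present in both lines, with 8.35 to 9.03 CPM in ID8 and 24.8 to 55.6 CPM in KPC (log2 fold change -2.33, SE 0.29, adjusted p = 8.29e-05). Foxa2, a pioneer factor of endoderm, was not called, with 43.6 to 51.8 CPM in ID8 and 30.9 to 43.5 CPM in KPC and a log2 fold change of 0.34 in favour of ID8. The endodermal genes were thus not all absent from ID8.

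Products of gut epithelium followed the factors. Of 27 gastrointestinal mucin and secretory genes 18 were tested, and 15 of those listed had 0 counts in all 3 ID8 libraries. Among the 18, 16 were higher in KPC (against 29.4% of all genes) and none was higher in ID8 (against 12.7%). Genes at 0 in ID8 entered the test through KPC, so this count describes the genes that passed, and among genes listed in both tables, 9 were higher in KPC. Cdh17, the liver-intestine cadherin, was 0 CPM in every ID8 library and 245, 240.1, 239.9, 282 and 171 CPM in the KPC libraries, at least 1440.4-fold higher in KPC. Muc1, a membrane mucin of ducts, was measured at 2.28, 2.57 and 2.07 CPM in the ID8 libraries and 318, 349, 452, 257 and 457 CPM in the KPC libraries (log2 fold change -7.31, SE 0.28, adjusted p = 6.71e-08). Lgals4, an intestinal galectin, was measured at 2.82, 2.25 and 2.24 CPM in the ID8 libraries and 425, 537, 533, 372 and 593 CPM in the KPC libraries (log2 fold change -7.65, SE 0.23, adjusted p = 1.98e-08). Krt20, the keratin of gut lining cells, was 0 CPM in every ID8 library and 28.2, 25.3, 44.7, 45.6 and 29.6 CPM in the KPC libraries, at least 212-fold higher. KPC replicate 4, the library with the most immune transcripts (given with the immune lists), had the lowest summed level of the foregut factor list, 858 CPM against 1271 to 1640 in the other KPC libraries, and its part in these values was not tested.

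Most epithelial adhesion genes were higher in KPC. Of 38 epithelial junction and polarity genes 31 were tested, with a median log2 fold change of -4.90. Among these, 23 were higher in KPC (against 29.4% of all genes) and 4 were higher in ID8 (against 12.7%). Cdh1, which encodes E-cadherin, was measured at 0.651, 0.712 and 1.15 CPM in the ID8 libraries and 654, 602, 887, 662 and 743 CPM in the KPC libraries, with means 848-fold apart (log2 fold change -9.72, SE 0.25, adjusted p = 9.94e-09). Epcam, an epithelial adhesion molecule, was measured at 2.98 to 3.67 CPM in ID8 and 119 to 239 CPM in KPC (log2 fold change -5.71, SE 0.28, adjusted p = 2.58e-07). Cldn6, a claudin of embryonic epithelium, was 0 CPM in every ID8 library and 174, 141, 153, 148 and 119 CPM in the KPC libraries, at least 899-fold higher in KPC. The 4 junction genes higher in ID8 were F11r, Lsr, Cxadr and Perp. F11r, the junctional adhesion molecule JAM-A, stood at 849.9 to 916 CPM in ID8 and 167 to 196 CPM in KPC (log2 fold change 2.28). Lsr, a protein of tricellular junctions, stood at 424 to 451 CPM in ID8 and 132 to 157 CPM in KPC (log2 fold change 1.65).

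Keratins were divided. Of 13 tested keratins, 7 were higher in KPC (against 29.4% of all genes), none in ID8 (against 12.7%) and 6 did not pass. Krt7, a ductal keratin, was measured at 21.00, 19.7 and 23.1 CPM in the ID8 libraries and 1215, 1233, 1089.7, 1020 and 971 CPM in the KPC libraries (log2 fold change -5.70, SE 0.13, adjusted p = 4.23e-09). Krt19, Krt8 and Krt18, the keratins of simple epithelium, did not reach a 2-fold difference: Krt19 stood at 1491 to 1648 CPM in ID8 and 896 to 1295 CPM in KPC (log2 fold change 0.59), Krt8 at -0.32 and Krt18 at -0.59 on the log2 scale. ID8 libraries therefore held these 3 keratins within 2-fold of KPC.

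Mesenchymal transition genes were called in both directions. All 25 were tested, with 13 higher in KPC (against 29.4% of all genes), 3 higher in ID8 (against 12.7%) and a median log2 fold change of -1.03. Vim, the intermediate filament vimentin, was measured at 3526, 3243 and 3176 CPM in the ID8 libraries and 1534, 1444, 1805, 2000.4 and 1459.5 CPM in the KPC libraries and passed the 2-fold criterion narrowly (log2 fold change 1.01, SE 0.11, adjusted p = 3.55e-05), falling short of it without ID8 replicate 1 (0.97) or KPC replicate 1 (0.98), 2 (0.94) or 5 (0.96). It also fell short with median-of-ratios factors or DESeq2 (0.96), library totals (0.86), factors from shared genes (0.85), the joint fit of 16 libraries (0.98) and a 1 CPM filter (0.999). Twist1, a transition factor also made by fibroblasts, was 0 CPM in every ID8 library and 59.5, 43.4, 30.98, 36.7 and 49.4 CPM in the KPC libraries, at least 269-fold higher in KPC. Zeb1, a repressor of Cdh1, was at 32.05 to 38.6 CPM in ID8 and 64.8 to 83.5 CPM in KPC (log2 fold change -1.13). Cdh2, or N-cadherin, did not pass, at 0.81. The KPC libraries also held fibroblast and collagen transcripts at 19764 to 32435 CPM in sum against 4612 to 4834 in ID8. Among those genes, 21 of 25 were higher in KPC (against 29.4% of all genes), and the part of fibroblasts in the mesenchymal values was not tested. Among the list genes reported here, just outside the 2-fold criterion lay Jup (0.999 on the log2 scale) and Ereg (-0.972), and just inside it lay Vim and Herc6 (-1.008).

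Hox genes, which record body position, split by cluster. Of 31 tested Hox genes, 14 were higher in ID8 (against 12.7% of all genes) and 13 in KPC (against 29.4%). All 8 tested genes of the Hoxb cluster were higher in KPC, and 7 of them had 0 counts in all 3 ID8 libraries. Those 7 entered the test through KPC alone, so the Hoxb count describes the genes that passed. Hoxb3 was 0 CPM in every ID8 library and 4.84, 5.74, 5.20, 5.67 and 6.61 CPM in the KPC libraries, at least 34.3-fold higher in KPC. The summed level of the Hoxb genes was 0 to 0.0548 CPM in ID8 and 16.5 to 25.5 CPM in KPC.

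In the other 3 clusters more genes were higher in ID8 than in KPC. In the Hoxa cluster 7 of 9 tested genes were higher in ID8 (against 12.7% of all genes) and 1 in KPC (against 29.4%). The Hoxa sums were 83.6 to 93.1 CPM in ID8 and 12.2 to 18.004 CPM in KPC. Hoxa10, known for patterning of the uterus, was measured at 25.8, 26.1 and 27.3 CPM in the ID8 libraries and 5.39, 4.95, 3.09, 4.80 and 3.23 CPM in the KPC libraries (log2 fold change 2.62, SE 0.19, adjusted p = 2.11e-06). Hoxa9 was the exception, at 0.657 to 1.03 CPM in ID8 and 1.61 to 2.74 CPM in KPC (log2 fold change -1.38). In the Hoxc cluster 4 of 9 were higher in ID8 (against 12.7% of all genes) and 3 in KPC (against 29.4%). Hoxc13, at the posterior end of that cluster, was measured at 19.1, 19.4 and 21.7 CPM in the ID8 libraries and 0.0499, 0, 0.245, 0.0510 and 0 CPM in the KPC libraries (log2 fold change 8.02, SE 0.53, adjusted p = 1.40e-06). In the Hoxd cluster 3 of 5 were higher in ID8 (against 12.7% of all genes) and 1 in KPC (against 29.4%). With so few genes, the Hoxc and Hoxd counts higher in KPC were not far from genes at large.

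**Figure D3:**
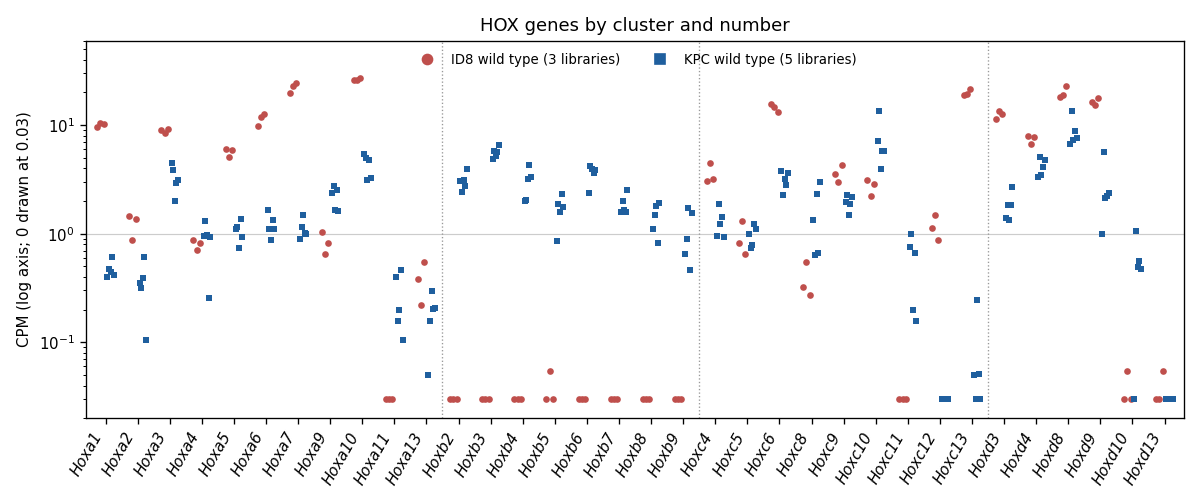
CPM of each Hox gene in the 3 wild-type ID8 libraries (circles) and 5 wild-type KPC libraries (squares) on a log axis, with libraries at 0 drawn at 0.03 and dotted lines between clusters. The Hoxb genes lie at or near 0 in ID8 and at 0.459 to 6.61 CPM in KPC, and most Hoxa and Hoxd genes lie higher in ID8.

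Imprinted genes, which are expressed from 1 parental copy and are known from embryonic and stromal tissue, included many with 0 counts in ID8. Of the 23 present, 20 were tested, of which 17 were higher in KPC (against 29.4% of all genes) and none in ID8 (against 12.7%). Among the 23 present, tested or not, 13 had 0 counts in all 3 ID8 libraries. Any of those 13 that were tested entered through KPC alone, so the count higher in KPC describes the genes that passed. Among genes listed in both tables, 7 were higher in KPC. The median log2 fold change of tested genes was -8.42 (-4.69 with genes at 0 set at their bound), and 18 of 20 were negative. The summed level of the list, to which abundant genes add most, was 1031 to 1116 CPM in ID8 and 900.1 to 1009 CPM in KPC. The sum was thus not lower in ID8, unlike most of the tested members. Peg3, a zinc finger gene of the paternal copy, was 0 CPM in every ID8 library and 20.4, 16.4, 13.8, 14.95 and 33.4 CPM in the KPC libraries, at least 121-fold higher in KPC. Grb10, an adaptor that restrains growth factor signalling, ranged over 0 to 0.163 CPM in ID8 and 40.2 to 58.3 CPM in KPC, a ratio of 864-fold (95% counting interval 296 to 4193). The 3 that did not pass were Igf2r (log2 fold change -0.02), Gnas (0.51) and Impact (0.62). Which cells gave the KPC reads was not measured, and host stromal transcripts were higher in the same libraries.

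Cdkn2a, which encodes the tumour suppressors p16Ink4a and p19Arf, was 0 CPM in every ID8 library and 287, 271, 225, 225 and 238 CPM in the KPC libraries, at least 1523-fold higher in KPC. Its neighbour Cdkn2b, which encodes the related inhibitor p15, was 0 CPM in every ID8 library and 79.3, 69.5, 54.2, 49.6 and 66.7 CPM in the KPC libraries, at least 390.3-fold higher in KPC. Mtap, the neighbour on the other side in the RefSeq gene order and an enzyme of methionine salvage, was measured at 529.6, 513 and 557 CPM in the ID8 libraries and 222, 219.5, 154, 142 and 192 CPM in the KPC libraries and was higher in ID8 (log2 fold change 1.52, SE 0.15, adjusted p = 1.65e-05). In the knockout libraries Cdkn2a and Cdkn2b were again at 0 in ID8, with means of 249 and 58.4 CPM in KPC, and Mtap stood at 419.8 ± 29.9 CPM in ID8 and 133 ± 8.32 CPM in KPC. Mtap reads were thus abundant in every library in which its neighbours were at 0.

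To set the genes at 0 beside their regulatory sequence, the 250 bases before each gene's start were read from the RefSeq promoter table of the GRCm38.p6 build. That build is not the one used for counting, so only sequences and no counts depend on it. The promoters are shown 5′ to 3′ on the gene's strand for genes at 0 throughout a line, to cover the range from CpG-rich to CpG-free, with CG dinucleotides and the motif TATAAA (searched on both strands, as TATAAA and TTTATA) in capitals. A gene with several starts has several promoters, and the counts do not tell them apart. The Cdkn2a window shown precedes the distal of the 2 starts in the table (chr4:89294620-89294869, minus strand), Hoxb4 lies at chr11:96318017-96318266, plus strand, Krt20 at chr11:99438154-99438403, minus strand and Muc16 at chr9:18674604-18674853, minus strand.
Cdkn2a: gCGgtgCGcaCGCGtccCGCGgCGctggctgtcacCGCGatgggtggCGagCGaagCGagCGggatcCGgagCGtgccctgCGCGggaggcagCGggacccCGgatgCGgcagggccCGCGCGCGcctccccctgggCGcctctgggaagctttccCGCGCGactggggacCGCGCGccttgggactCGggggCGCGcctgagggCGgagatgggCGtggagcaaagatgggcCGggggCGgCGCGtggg
Hoxb4: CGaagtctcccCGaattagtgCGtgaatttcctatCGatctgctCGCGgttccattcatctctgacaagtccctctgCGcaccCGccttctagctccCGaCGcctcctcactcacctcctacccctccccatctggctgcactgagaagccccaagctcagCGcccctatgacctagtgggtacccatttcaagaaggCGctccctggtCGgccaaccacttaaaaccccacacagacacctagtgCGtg
Krt20: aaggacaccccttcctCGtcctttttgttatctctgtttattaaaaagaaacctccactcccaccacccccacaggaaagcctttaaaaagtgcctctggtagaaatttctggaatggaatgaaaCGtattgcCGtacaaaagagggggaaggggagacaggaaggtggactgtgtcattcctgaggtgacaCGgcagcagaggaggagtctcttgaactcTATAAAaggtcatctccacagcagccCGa
Muc16: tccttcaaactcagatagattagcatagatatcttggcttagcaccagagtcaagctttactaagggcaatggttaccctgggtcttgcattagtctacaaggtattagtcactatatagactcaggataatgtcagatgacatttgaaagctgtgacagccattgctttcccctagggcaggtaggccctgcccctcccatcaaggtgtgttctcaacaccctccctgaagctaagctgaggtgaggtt
These windows hold 40 CG dinucleotides for Cdkn2a, 14 for Hoxb4, 5 for Krt20 and 0 for Muc16. The window of the other Cdkn2a start (chr4:89282193-89282442, minus strand), not shown, holds 7. Only the Krt20 window holds TATAAA, a motif present in 12.37% of the 32841 promoters of the table and 7.20% of the 14618 promoters matched to 11463 tested genes. The median ratio of observed to expected CpG was 0.679 over the tested genes' promoters, 0.754 where the gene was not called, 0.649 where it was higher in ID8 and 0.432 where it was higher in KPC. For genes higher in KPC with 0 counts in all ID8 libraries the median was 0.351, and 11.78% held TATAAA. These are descriptions of the letters in the windows, with no test.

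Cancer driver genes were called about as often as genes at large. Of 25 drivers, 9 were higher in KPC (against 29.4% of all genes), 2 were higher in ID8 (against 12.7%) and 14 did not pass, with a median log2 fold change of -0.31. Ctnnb1, which encodes beta-catenin, was measured at 588, 589 and 589.6 CPM in the ID8 libraries and 2225, 2060.2, 1912, 1589 and 2241 CPM in the KPC libraries (log2 fold change -1.77, SE 0.12, adjusted p = 1.20e-06). Trp53 was at 243 to 257 CPM in ID8 and 143 to 165 CPM in KPC (log2 fold change 0.67). Brca1 (1.12) and Kdm6a (1.15) were the 2 higher in ID8, and Brca1 fell short of 2-fold with library totals (0.97) and with factors from shared genes (0.96).

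Targets of p53, the factor that arrests or kills damaged cells, were more often higher in ID8 than in KPC. Of 32 targets, 14 were higher in ID8 (against 12.7% of all genes), 5 were higher in KPC (against 29.4%) and 13 did not pass. Their median log2 fold change was 0.89. With a test against the 2-fold threshold itself, 8 were higher in ID8. Psrc1, a spindle protein, was measured at 234, 238 and 225 CPM in the ID8 libraries and 8.08, 9.01, 9.08, 7.25 and 6.25 CPM in the KPC libraries (log2 fold change 4.87, SE 0.11, adjusted p = 5.11e-09). Ephx1, an epoxide hydrolase, was measured at 413 to 446 CPM in ID8 and 23.5 to 42.1 CPM in KPC (log2 fold change 3.75). Pmaip1, which encodes the death protein Noxa, was higher in KPC, with 9.66 to 10.4 CPM in ID8 and 36.2 to 70.6 CPM in KPC (log2 fold change -2.30). The arrest gene Cdkn1a (0.89) and the p53 ubiquitin ligase Mdm2 (0.77) did not reach 2-fold.

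Receptor tyrosine kinases differed in both directions. Of 32 tested receptor tyrosine kinases 18 were higher in KPC and 7 in ID8, against 29.4% and 12.7% of all genes. Erbb4, a neuregulin receptor, was measured at 4.07, 6.73 and 4.26 CPM in the ID8 libraries and 0, 0.0527, 0.0491, 0 and 0.104 CPM in the KPC libraries (log2 fold change 6.73, SE 0.54, adjusted p = 4.39e-06, on 4 counts in KPC). Egfr (1.89) and Fgfr2 (2.31) were also higher in ID8. Fgfr4 (-8.83) and Ephb4 (-3.64) were higher in KPC, and Ret, the receptor for glial-derived factors, had 0 counts in ID8 and was at least 39.9-fold higher in KPC. Of 25 RAS-MAPK feedback and output genes, 10 were higher in KPC (against 29.4% of all genes), 2 were higher in ID8 (against 12.7%) and 13 did not pass, with a median log2 fold change of -0.68, counts not far from those of genes at large.

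Proliferation genes all had higher fitted values in ID8. Of 33 such genes, all tested, 20 passed as higher in ID8 (against 12.7% of all genes) and none as higher in KPC (against 29.4%). The other 13 did not reach 2-fold. For each of the 33 the log2 fold change was above 0, with a median of 1.14 (0.98 with factors from shared genes). Aurkb, a mitotic kinase, was measured at 99.5, 99.9 and 101 CPM in the ID8 libraries and 25.2, 30.2, 30.6, 30.4 and 23.6 CPM in the KPC libraries (log2 fold change 1.84, SE 0.10, adjusted p = 2.93e-07). Top2a, the topoisomerase of dividing cells, was measured at 474 to 543 CPM in ID8 and 184 to 239.7 CPM in KPC (log2 fold change 1.23). Mki67 did not pass, with 251 to 337 CPM in ID8 and 166 to 236 CPM in KPC (log2 fold change 0.57). In the knockout libraries 22 of the 33 were higher in ID8. Of the host genes tested, 178 of 204 were higher in KPC, and the part of non-dividing host cells in the proliferation difference was not tested.

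Most hypoxia and glycolysis genes were higher in wild-type ID8. Of 24 genes, 14 were higher in ID8 (against 12.7% of all genes) and 2 in KPC (against 29.4%), with a median log2 fold change of 1.49. The knockout libraries gave 5 in each direction and a median of 0.15, and the difference between genotypes was not tested. Pgk1, a glycolytic kinase, was measured at 4474, 4062 and 3752 CPM in the ID8 libraries and 548, 628, 568, 652 and 496 CPM in the KPC libraries (log2 fold change 2.82, SE 0.10, adjusted p = 3.32e-08). Egln3, an oxygen-sensing prolyl hydroxylase, was measured at 368 to 446 CPM in ID8 and 30.3 to 45.3 CPM in KPC (log2 fold change 3.48). Car9, a carbonic anhydrase induced by low oxygen, was higher in KPC, at 3.42, 2.68 and 4.04 CPM in the ID8 libraries and 38.8, 46.1, 88.1, 50.2 and 85.4 CPM in the KPC libraries (log2 fold change -4.19, SE 0.38, adjusted p = 1.23e-05). Pgk1 and Car9 therefore differed between the lines in opposite directions.

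Of 24 cholesterol synthesis genes 2 were higher in ID8 (against 12.7% of all genes), 2 were higher in KPC (against 29.4%) and 20 did not pass. The list was thus called less often than genes at large. Hmgcs1 (1.06) and Srebf2 (1.04) were just above 2-fold in ID8, and 0 genes of the list were when counts were scaled by library totals or KPC replicate 2 was left out. In the knockout libraries 0 genes of the list were higher in ID8 and 6 were higher in KPC (edgeR).

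**Figure D4:**
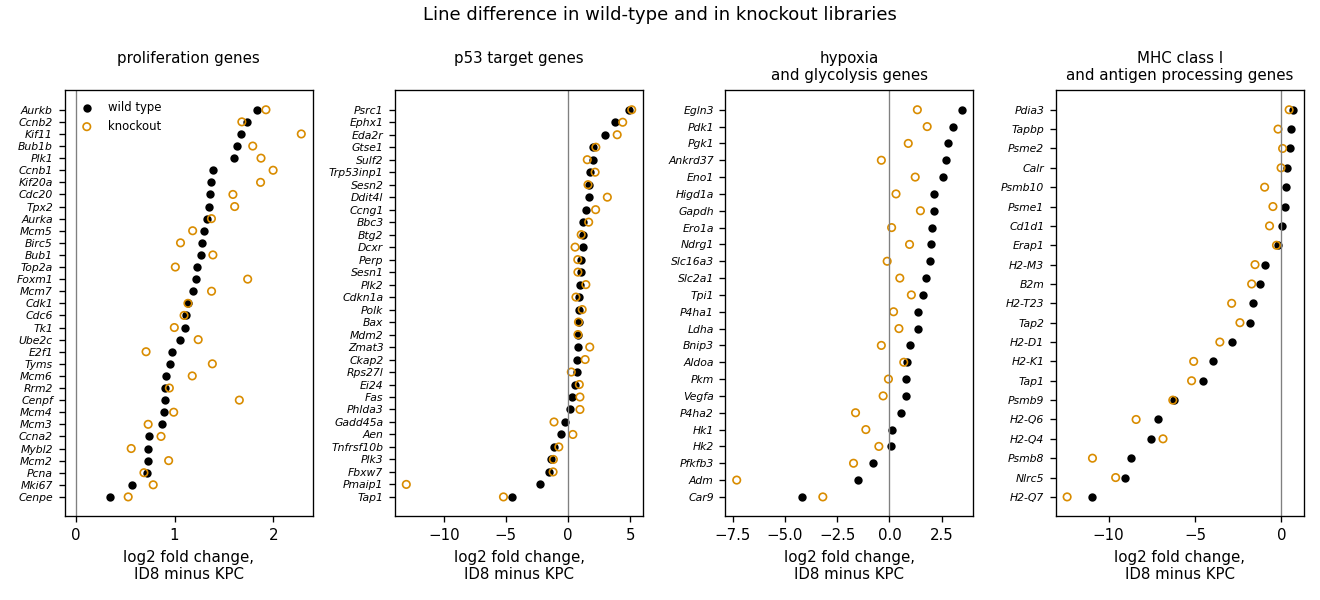
Log2 fold change, ID8 minus KPC, of each gene of 4 lists in wild-type libraries (filled) and knockout libraries (open), 1 gene per line. Every proliferation gene lies right of 0, the median of the hypoxia and glycolysis genes is 1.49 in wild type and 0.15 in knockout, and values far left of 0 (such as H2-Q7, or Pmaip1 in knockout) belong to genes with 0 or few counts in ID8, whose fitted value depends on the prior count.

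Interferon-stimulated genes, antigen presentation genes and cytokines were more often higher in KPC. Of 34 interferon-stimulated genes, 25 were higher in KPC (against 29.4% of all genes) and none in ID8 (against 12.7%). Their median log2 fold change was -2.36. Irf7, a factor that drives type I interferon genes, was measured at 4.88, 4.38 and 4.86 CPM in the ID8 libraries and 13.3, 23.5, 42.8, 51.8 and 16.1 CPM in the KPC libraries (log2 fold change -2.65, SE 0.51, adjusted p = 0.00135). Isg15, a ubiquitin-like product of interferon, did not pass (log2 fold change -0.65). Of 21 MHC class I and antigen processing genes, 12 were higher in KPC (against 29.4% of all genes) and none in ID8 (against 12.7%). H2-K1, a classical class I heavy chain, was measured at 64.5, 55.2 and 56.9 CPM in the ID8 libraries and 346, 824, 1124, 2001 and 362 CPM in the KPC libraries (log2 fold change -3.98, SE 0.70, adjusted p = 0.00112). B2m, its light chain, was measured at 215, 205 and 232 CPM in the ID8 libraries and 266, 439.6, 611, 951 and 261 CPM in the KPC libraries (log2 fold change -1.22, SE 0.44, adjusted p = 0.0333). The B2m call was lost without any 1 of the 3 ID8 libraries (edgeR adjusted p = 0.0879, 0.0948 and 0.0769 without replicates 1, 2 and 3), without KPC replicate 3 (0.0642) and without KPC replicate 4, where the log2 fold change was -0.86. Nlrc5, the class I transactivator, ranged over 0 to 0.164 CPM in ID8 and 9.68 to 74.4 CPM in KPC, a ratio of 591-fold (95% counting interval 202 to 2867). Every KPC library exceeded every ID8 library for H2-K1, B2m and Nlrc5, and KPC replicate 4 was highest for each. Such separation of the lines, in either direction, held for 77.9% of all genes tested. H2-K1 shares sequence with other class I genes, so the split of reads among them is uncertain.

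The same KPC libraries led most immune lists, and the order of the remaining libraries varied. KPC replicate 4 ranked first and replicate 3 second in the summed level of T cell, natural killer, macrophage, dendritic cell, interferon-stimulated and MHC class I genes. T cell genes summed to 319 CPM in replicate 4, 161 in replicate 3 and 73.0 to 106 in the other 3, against 1.68 to 2.52 CPM in ID8. The part of infiltrating cells in the interferon and class I values was not tested. For the lists in which no gene passed in a direction, edgeR's unadjusted p under 0.05 at any fold gave 4 MHC class I and antigen processing genes, 2 imprinted genes, 1 keratin and 0 gastrointestinal or interferon-stimulated genes in favour of ID8, and 0 proliferation genes in favour of KPC. DESeq2 called 0 in each of these.

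Of 35 inflammatory cytokine and chemokine genes 25 were higher in KPC (against 29.4% of all genes) and 3 in ID8 (against 12.7%). Those 3 were Csf1, Cxcl12 and Cxcl1. Csf1, the macrophage growth factor, was measured at 299, 301 and 282 CPM in the ID8 libraries and 62.2, 54.7, 63.7, 93.6 and 46.6 CPM in the KPC libraries (log2 fold change 2.20, SE 0.19, adjusted p = 8.11e-06). Cxcl12, a stromal chemokine, was measured at 506 to 519 CPM in ID8 and 75.01 to 204 CPM in KPC (log2 fold change 2.12). Il1b had 0 counts in ID8 and was at least 169-fold higher in KPC, as was Cxcl9, an interferon-induced T cell attractant, by at least 550.3-fold. Cxcl5, a neutrophil attractant, was higher in wild-type KPC, at 6.02, 6.57 and 5.62 CPM in the ID8 libraries and 25.3, 17.5, 31.9, 24.5 and 23.5 CPM in the KPC libraries (log2 fold change -2.01, SE 0.19, adjusted p = 1.07e-05), and higher in knockout ID8, at 71.03 ± 6.95 CPM in ID8 and 30.8 ± 8.03 CPM in KPC (log2 fold change 1.21).

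Nearly all host cell genes that passed were higher in KPC. Of 244 genes in 14 host lists 204 were tested, and 108 of those listed had 0 counts in all 3 ID8 libraries. Among the 204, 178 were higher in KPC (against 29.4% of all genes) and 6 in ID8 (against 12.7%). A gene found only in KPC passed the low-count filter through KPC, so these shares describe the genes that passed. All 24 macrophage and monocyte genes were higher in KPC, with sums of 2579 to 5935 CPM against 15.7 to 17.9 CPM in ID8. Csf1r, the receptor for Csf1, was higher in KPC by 3938-fold (95% counting interval 1347 to 19097). Neutrophil genes summed to 92.3 to 166 CPM in KPC and 0.821 to 1.03 CPM in ID8. Natural killer and cytotoxic genes summed to 9.83 to 68.6 CPM in KPC and 0.651 to 0.767 CPM in ID8. All 11 tested genes of that list were higher in KPC, and 7 were when either KPC replicate 3 or 4 was left out. Cd8a, a co-receptor of cytotoxic T cells, was 0 CPM in every ID8 library and 0.848, 3.84, 4.52, 14.5 and 1.04 CPM in the KPC libraries, at least 30.2-fold higher in KPC, with replicate 4 far above the rest.

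Stromal genes were not uniformly absent from ID8. Col1a2, which encodes a chain of type I collagen, was measured at 0.217, 0.383 and 0.0546 CPM in the ID8 libraries and 5899.5, 3749, 4637, 6164 and 5692 CPM in the KPC libraries (log2 fold change -14.51, SE 0.43, adjusted p = 2.27e-08). Col1a1, the partner chain, was measured at 186, 206 and 152 CPM in the ID8 libraries and 5504, 3541, 4177, 5757 and 5237 CPM in the KPC libraries (log2 fold change -4.74, SE 0.22, adjusted p = 1.75e-07). Col3a1, type III collagen, was at 303 to 371 CPM in ID8 and 4215 to 7778 CPM in KPC (log2 fold change -4.06). ID8 thus held reads of Col1a1 and Col3a1 with almost none of Col1a2. Dcn, the proteoglycan decorin, overlapped between lines at 427 to 473 CPM in ID8 and 262 to 470.4 CPM in KPC (log2 fold change 0.38), and Sparc at 2742 to 2827 CPM in ID8 and 2256 to 3287 CPM in KPC also did not pass.

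The 6 host-list genes higher in ID8 were Flt4, Lpl, Ccr7, Esam, Zbtb46 and Mbp. Flt4, the lymphatic VEGF receptor, was measured at 154, 163 and 145 CPM in the ID8 libraries and 15.4, 13.7, 13.3, 15.6 and 15.4 CPM in the KPC libraries (log2 fold change 3.39, SE 0.07, adjusted p = 4.00e-09). The endothelial marker Pecam1 was 2.24 to 2.77 CPM in ID8 and 76.1 to 135 CPM in KPC, so Flt4 was high in ID8 with Cdh5 at 0.

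Muscle, fat and skin transcripts varied among the KPC tumours. Acta1, skeletal muscle actin, was measured at 0.109, 0.0548 and 0.0546 CPM in the ID8 libraries and 793, 7334, 435, 1844 and 165 CPM in the KPC libraries (log2 fold change -14.70, SE 2.41, adjusted p = 7.73e-04, on 4 counts in ID8), and the muscle list summed to 821 CPM in KPC replicate 5 and 43388 CPM in replicate 2. Of 23 tested muscle genes 20 were higher in KPC in wild type (against 29.4% of all genes) and 10 in knockout (against 29.8%). Their median log2 fold change was -12.36 in wild type and -11.97 in knockout. The spread was wide in knockout, where the muscle gene Myh4 was not called (log2 fold change -16.46, SE 6.91). The difference between genotypes was not tested. Krt10, a keratin of skin, reached 184 CPM in KPC replicate 3 2.25 to 35.03 CPM in the other KPC libraries and 1.95 to 2.29 CPM in ID8. Adipoq, the fat hormone adiponectin, was 0 CPM in every ID8 library and 8.43, 13.4, 6.48, 14.3 and 41.1 CPM in the KPC libraries. Leaving out both KPC libraries with Acta1 above 1000 CPM (replicates 2 and 4) gave 3953 genes higher in KPC and 1799 higher in ID8.

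**Figure D5:**
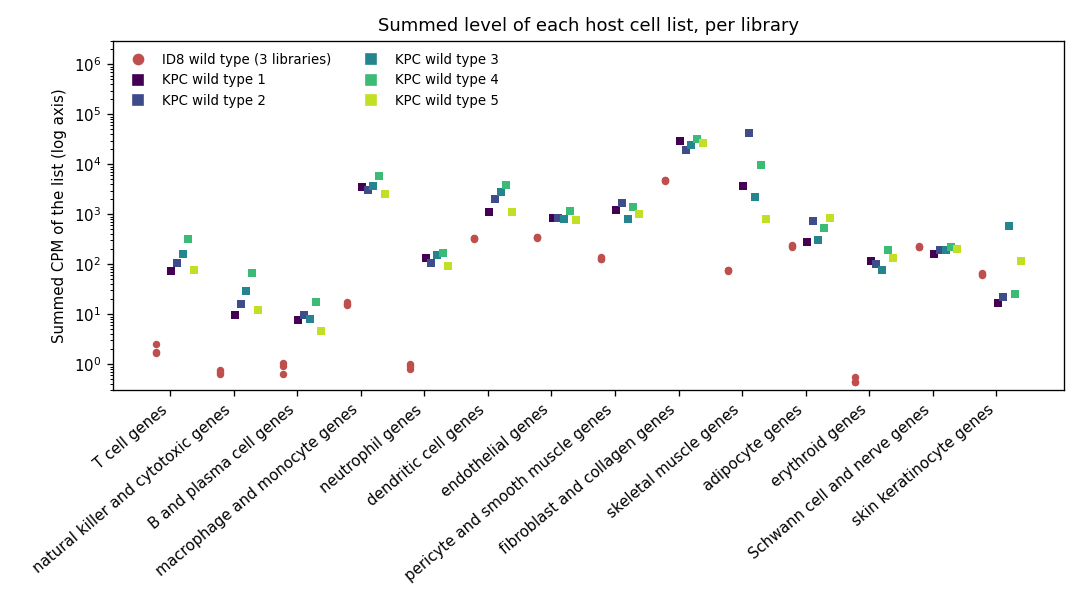
Summed CPM of the listed genes of each host cell type in the 3 wild-type ID8 libraries (circles) and 5 wild-type KPC libraries (squares, 1 colour per replicate) on a log axis. KPC replicate 4 is highest for most immune lists, replicate 2 for skeletal muscle and replicate 3 for skin keratinocyte genes, and the ID8 libraries lie close together throughout.

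The genes with the largest differences over the whole table were named by rule, whether or not a list held them. Among genes at 1 CPM or more in all 8 libraries, the 8 largest in favour of ID8 were Kctd14, Pcp4l1, Pkhd1l1, Ptgis, Arl4d, Sh3tc2, Ildr2 and Daam2, with log2 fold changes from 5.98 to 9.09. Kctd14 was measured at 696, 666 and 692 CPM in the ID8 libraries and 1.05, 1.32, 1.18, 1.07 and 1.67 CPM in the KPC libraries (log2 fold change 9.09, SE 0.13, adjusted p = 1.06e-09). Pkhd1l1, a fibrocystin-like membrane protein, was measured at 469, 804 and 414 CPM in the ID8 libraries and 2.74, 3.27, 8.35, 3.16 and 5.93 CPM in the KPC libraries (log2 fold change 6.90, SE 0.42, adjusted p = 1.52e-06). Ptgis makes prostacyclin, and Daam2 is a formin of Wnt signalling.

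The 8 largest in favour of KPC were Cd74, Fbn1, Nid1, Dmbt1, Ankrd23, Lgals4, Cldn2 and Igfbp3, with log2 fold changes from -8.29 to -7.38. Cd74, the MHC class II invariant chain of antigen-presenting cells, was measured at 2.39, 2.74 and 2.84 CPM in the ID8 libraries and 388, 785, 1070.4, 1521 and 388 CPM in the KPC libraries (log2 fold change -8.29, SE 0.71, adjusted p = 1.47e-05). Dmbt1, a mucin-like scavenger protein of gut and duct, was measured at 6.29, 8.87 and 5.30 CPM in the ID8 libraries and 1491, 1688, 1455, 351 and 3012 CPM in the KPC libraries (log2 fold change -7.87, SE 0.84, adjusted p = 6.45e-05). The set joined products of immune and stromal cells, such as Cd74 and the microfibril protein Fbn1, with products of gut epithelium, such as Lgals4 and the claudin Cldn2.

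Among genes at 0 throughout ID8 and outside the host lists, the highest in KPC were Scara3, Lrrc15, Spon1, Cdkn2a, Cdh17, Wfdc2, Hnf4a and Ugt2b34. Scara3, a scavenger receptor family member, was 0 CPM in every ID8 library and 484, 382, 291, 227 and 457 CPM in the KPC libraries, at least 2250.5-fold higher. Lrrc15, a membrane protein known from tumour fibroblasts, was 0 CPM in every ID8 library and 393, 221, 223, 283 and 391 CPM in the KPC libraries, at least 1847-fold higher. Wfdc2, the HE4 protein used as a serum marker of human ovarian carcinoma, was 0 CPM in every ID8 library and 201, 205, 244, 229.8 and 219.8 CPM in the KPC libraries, at least 1345-fold higher in the pancreatic line. Among genes at 0 throughout KPC, the highest in ID8 were Muc16, Rnf112, Defb29, Sowahd, Mybphl, Nxf3, Sp9 and Pnliprp1. Rnf112, a ring finger protein known from brain, was 30.00, 29.7 and 29.5 CPM in the ID8 libraries and 0 CPM in every KPC library, at least 195-fold higher in ID8, and Pnliprp1, a pancreatic lipase relative, was at least 25.6-fold higher in ID8.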

How the data were processed

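Tables of expected counts per gene, estimated by RSEM, were deposited by the authors for each line and genotype. The submitters' processing notes name HISAT, RSEM 1.2.8 and the GRCm39 (mm39) build, with no role or order, and the strand setting was not stated there. RSEM can divide reads among near-identical genes. The wild-type ID8 and KPC tables were joined on gene ID, with a gene missing from 1 table taken as 0: 14649 genes were in both, 386 in ID8 alone and 3188 in KPC alone. Of the values, 7.92% in ID8 and 8.55% in KPC were not whole, and counts were rounded.

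The 8 wild-type libraries were fitted in R 4.3.3 with edgeR 4.0.16 (filterByExpr, TMM scaling, robust quasi-likelihood test, Benjamini-Hochberg adjustment over all genes tested). SEs were approximated from each log2 fold change and its F statistic. Single values were tested with SciPy 1.17.1 exact permutation, two-sided. The knockout libraries were fitted separately in the same way. On simulated counts for the wild-type comparison (14507 genes, 10 draws, 200 genes changed), 25.7% of 1.5-fold, 64.3% of 2-fold and 88.2% of 4-fold changes were recovered. Of these calls, made at the adjusted p alone, 2.69% were false. At the 2-fold call rule 2.44% were false, and recovery of 2-fold changes was not measured. In the data 79.1% of genes passed the adjusted p, far more than were changed in the simulation, so these shares may not carry over. Library totals differed by little, but chi-square statistics per gene between replicates were 5.23 to 7.27 in ID8 and 18.9 to 108 in KPC, so no 2 libraries agreed within sampling noise. Intervals and floors cover counting error only.

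The genes named are the core genes of the lists, the 8 largest differences per direction among genes at 1 CPM or more in all libraries, the 8 highest genes per direction at 0 throughout the other line (predicted and Rik genes, receptor segments, pseudogenes and, for the last set, host-list genes passed over), and Trp53bp1. Members, lists and rules were chosen with earlier results of these data known. Listed genes missing from the tables were not analysed here, and a few items are not reported here. Alternatives were other scalings, DESeq2 1.42.0, limma 3.58.1 (voom), a test against 2-fold, other filters, genes listed in both tables, a joint fit of 16 libraries, a replicate block and leaving out each library.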

Additional observations from a re-analysis of the deposited data

Results flagged for a closer look

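In the 5 wild-type KPC libraries, 214 results were screened for 1 library far from the others by Dixon's gap test (0.71 for 5 samples), which chance passes in about 1 of 20 groups. Groups of 3, which is all of ID8, were not screened.

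KPC replicate 2 stood apart through skeletal muscle: Acta1 reached 7334 CPM, Ckm 4914, Myh4 8149, Tnnt3 3324 and Ankrd23 1178 CPM, and the muscle list summed to 43388 CPM. In the same library Ccng1 was 322 CPM and Smad4, its lowest in KPC, 132 CPM. KPC replicate 3 stood apart through skin keratins, with Krt10 at 184 CPM, Krt14 at 142, Lor at 18.7, the skin keratinocyte list at 571 CPM and the keratin list at 6561 CPM. It also held the extreme value of Bnc1 (1.13 CPM), Lrrn4 (0.0982), Esrp1 (5.50), S100a9 (13.6) and Brca1 (27.1 CPM).

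KPC replicate 4 stood apart in immune and vascular genes, with Cd8a at 14.5 CPM, Cd3e at 7.35, Adgre1 at 128, Kdr at 49.3, Myh11 at 44.8, and Rgs5 at 186 CPM, and with an endothelial sum of 1151 CPM. Ptgis was highest there at 10.3 CPM and Spry2, a feedback inhibitor of RAS-MAPK signalling, was lowest there at 27.4 CPM. KPC replicate 5 held the extreme value of Adipoq (41.1 CPM), Muc6 (16.8) and Vegfa (270.5 CPM), and the lowest total, 17902867 counts.

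Cxcl5 was called in opposite directions in the 2 genotypes, with a log2 fold change of -2.01 in wild type and 1.21 in knockout. That difference itself was not tested.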

How the results depend on the processing

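Over 21 settings, 3665 values of 177 named genes were recomputed: 3567 kept their direction and side of the threshold, 55 fell below it (16 genes), 32 rose past it (20 genes) and 11 changed sign (3 genes, none of them called by edgeR in the wild-type comparison). The 3 were Ccl2 (-0.0186 with median-of-ratios factors, -0.1193 with library totals, -0.1281 with shared-gene factors, -0.0188 with DESeq2, -0.0026 in the joint fit, -0.0233 to 0.1008 with 1 library left out), Fgfr1 (-0.0336 with totals, -0.0399 with shared-gene factors) and Smad4 (-0.0605 to 0.0061 with 1 library left out).

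Without the fold criterion 5045 genes were higher in ID8 and 6429 in KPC, with 33 proliferation, 23 p53 target and 13 cholesterol genes higher in ID8 and 14 drivers higher in KPC. All other settings left both counts within 1.5 times, from 1818 to 1898 and 4074 to 4326 with 1 library left out. With glmTreat, 8 p53 targets and 0 cholesterol genes were higher in ID8, and 3 Schwann cell and 0 skin keratinocyte genes in KPC. Cholesterol genes higher in ID8 numbered 1 with median-of-ratios factors, DESeq2 or without the Acta1-high libraries, 0 with totals or shared-gene factors, and 0 to 2 with 1 library left out. Skin keratinocyte genes higher in KPC numbered 1, but 3 with DESeq2, 5 in the joint fit, 4 without the Acta1-high libraries and 0 to 2 with 1 library left out. B cell genes rose to 8 with no filter or the joint fit, keratins to 11 in the joint fit, and natural killer genes fell to 7 at 1 CPM, 6 without the Acta1-high libraries and 7 to 12 with 1 library left out. Among genes listed in both tables, fewer by construction, those higher in KPC were 5 gonadal, 11 foregut, 9 gastrointestinal, 7 imprinted, 8 T cell, 3 natural killer, 8 macrophage, 3 neutrophil, 5 dendritic cell, 11 muscle, 5 adipocyte and 1 erythroid. The causes of the other changes were not tested.

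Same-numbered libraries of the lines did not deviate together (correlations -0.0205, -0.0361 and -0.0115). So few pairs cannot show whether the numbers mark a pairing. With a replicate block, 1834 genes were higher in ID8 and 4200 in KPC, cholesterol genes higher in ID8 numbered 1, and the calls of B2m and Ccng1 were lost. Removal of the Acta1-high libraries was chosen after seeing the data. Depth limits folds against a line with 0 to few counts, which are bounds or carry wide counting intervals. In a simulation with 200 genes changed, 64.3% of 2-fold changes were recovered at the adjusted p alone. The part of depth in that share was not tested.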

Other observations

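A small group of genes chosen after their values were seen was detected in ID8 and at or near 0 in KPC. Zscan4c, Zscan4d and Zscan4f, members of a family known from the cleavage-stage embryo and from embryonic stem cells, belong to it. Zscan4f was measured at 5.15, 5.80 and 4.86 CPM in the ID8 libraries and 0, 0, 0, 0.102 and 0 CPM in the KPC libraries, a ratio of 259-fold (95% counting interval 71.02 to 2148), and Zscan4c at 2.82, 2.79 and 3.82 CPM in the ID8 libraries and 0.0499, 0.105, 0, 0 and 0 CPM in the KPC libraries, a ratio of 103-fold (95% counting interval 34.6 to 504). Zscan4d was 1.46, 0.876 and 0.764 CPM in the ID8 libraries and 0 CPM in every KPC library, at least 6.77-fold higher in ID8. In the knockout libraries Zscan4f stood at 2.64 ± 0.289 CPM in ID8 and 0.0419 ± 0.0432 CPM in KPC. These genes have near-identical copies, so the split of reads among them is uncertain.

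Pax3, a factor of neural crest and muscle precursors, was also chosen after its values were seen. It was measured at 43.4, 39.3 and 40.9 CPM in the ID8 libraries and 0, 0, 0, 0.102 and 0 CPM in the KPC libraries, a ratio of 2024-fold (95% counting interval 559.6 to 16720), and at 40.2 ± 1.24 CPM in ID8 and 0.0103 ± 0.0231 CPM in KPC in the knockout libraries.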
